A study of Mus musculus with 12 samples.

Results

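Hair follicle and hair cycle regulators are described here as 10 genes, *Lgr5*, *Lhx2*, *Shh*, *Msx2*, *Foxn1*, *Hoxc13*, *Dlx3*, *Lef1*, *Foxe1* and *Sox9*, out of 56923 genes in the table of read counts. They were listed by name as regulators of the follicle, and the list was in part chosen by measured values, since *Foxe1* had been seen among the largest falls of WT IMQ mice against WT control mice. For that reason the values of the 10 genes in that comparison are given as a description without a test. All 10 passed the filter on low counts, among the 18529 genes that did.

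RNA of back skin was sequenced from 12 female C57BL/6 mice, 8 to 10 weeks old, with 3 mice in each of 4 groups. WT mice received either vehicle cream (WT control) or 5% imiquimod cream (WT IMQ) on shaved skin for 6 days, and mice labelled *Lcn2*-/- were treated in the same ways. Imiquimod (IMQ) is an activator of innate immune receptors that produces psoriasis-like inflammation in mouse skin, and *Lcn2* encodes lipocalin 2, a secreted protein of neutrophils and inflamed epithelium. The *Lcn2*-/- mice came from a commercial knockout line and were compared with WT littermates. The labels word the genotype as knockdown and give the controls no treatment, and here the study's own description was used. The labels' extraction text names retinas, but the 6 retina genes examined summed to at most 2.11 CPM (counts of a gene scaled to a common library size) in every library, whereas 5 genes of basal keratinocytes summed to at least 2712 CPM.

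Hair follicles cycle through growth (anagen), regression (catagen) and rest (telogen). Stem cells in the bulge and hair germ carry *Lhx2*, *Sox9* and *Lgr5*. In anagen, Wnt signalling through nuclear factors such as LEF1 and the Hedgehog ligand SHH act in the growing epithelium, and MSX2, FOXN1, HOXC13 and DLX3 act in the matrix and in the precursors of the hair shaft, where they govern hair keratin genes. In resting skin the lower follicle is short and the matrix is absent, so RNA of the matrix regulators follows the hair cycle.

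The sequences just upstream of the transcription start are shown for *Lhx2*, *Foxn1* and *Lef1*. With IMQ in the mice labelled *Lcn2*-/-, *Lhx2* and *Lef1* fell with most of the 10 genes, and *Foxn1* did not pass the test. Among the control mice *Foxn1* was, like most of the 10, lowest in WT control mouse 2. RefSeq windows on GRCm38.p6 were matched for 4 of the 10 genes. The 250 bases before the start are printed in the direction of transcription, with CpG dinucleotides in capitals. They lie at chr2:38339031-38339280 on the + strand (*Lhx2*), chr11:78386609-78386858 on the - strand (*Foxn1*) and chr3:131110047-131110296 on the + strand (*Lef1*), upstream of and outside the body of the gene each belongs to in GENCODE M21.
*Lhx2*: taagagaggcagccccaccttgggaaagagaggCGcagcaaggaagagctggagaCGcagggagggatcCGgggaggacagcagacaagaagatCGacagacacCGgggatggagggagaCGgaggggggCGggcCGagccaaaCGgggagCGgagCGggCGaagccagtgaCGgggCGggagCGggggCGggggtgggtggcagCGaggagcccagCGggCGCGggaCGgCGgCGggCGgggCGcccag
*Foxn1*: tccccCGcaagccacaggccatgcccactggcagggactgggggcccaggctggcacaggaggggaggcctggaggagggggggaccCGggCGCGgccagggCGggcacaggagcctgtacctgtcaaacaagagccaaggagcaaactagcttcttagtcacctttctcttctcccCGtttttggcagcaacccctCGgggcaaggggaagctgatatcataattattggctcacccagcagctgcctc
*Lef1*: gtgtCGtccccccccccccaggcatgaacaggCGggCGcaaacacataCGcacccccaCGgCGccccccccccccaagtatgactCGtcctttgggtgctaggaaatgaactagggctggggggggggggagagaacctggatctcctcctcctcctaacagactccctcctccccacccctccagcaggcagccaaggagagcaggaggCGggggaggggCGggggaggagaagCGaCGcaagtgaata
The *Lhx2* window held 25 CpG and 72.8% G and C, that of *Lef1* 11 CpG and 66.4%, and that of *Foxn1* 7 CpG and 63.2%, against medians of 6 CpG and 52.4% over 32817 windows. The 4 matched windows, that of *Msx2* with 16 CpG included, were searched on both strands for the Wnt factor letters (CTTTGAA or CTTTGAT and likewise the forms CTTTGTA or CTTTGTT), the GLI letters ACCACCC and the TATA letters TATAAA. None was in any of the 4 windows, while 14.8%, 3.92% and 12.4% of all windows held the respective letters. The count of CpG was chosen after that search.

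The targeted gene was read in every library. *Lcn2* had 136, 201 and 86 counts in the WT control mice, 1010, 2723 and 1572 in the WT IMQ mice, 320, 173 and 357 in the control mice labelled *Lcn2*-/- and 561, 511 and 830 in the IMQ mice with that label. The counts therefore go against a complete loss of the transcript, they do not show which exons carried the reads, and the genotype is given below as a label. *Lcn2* rose by 1.67 on the log2 scale with IMQ among the mice labelled *Lcn2*-/- (SE 0.40, adjusted p = 0.0121 in edgeR), and by 4.03 in WT mice. The difference of these responses was -2.36 (SE 0.57, adjusted p = 0.0552 in edgeR). Labelled against WT, *Lcn2* stood at -1.49 between the IMQ mice (SE 0.40, adjusted p = 0.0525), without overlap, and at 0.87 between the controls (SE 0.41, adjusted p = 0.794). Library totals lay between 16448226 and 28592110 counts, where 3 counts correspond to between 0.105 and 0.182 CPM, a floor for counting error only.

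The 6 control mice did not carry the regulators evenly. WT control mouse 2 had the lowest level of the 6 in 9 of the 10 genes, while it was lowest in 24.7% of all genes tested and highest in 24.2%. Control mouse 2 labelled *Lcn2*-/- had the highest level in 8 of the 10 genes and in 25.5% of all genes tested. Control mouse 1 with that label was among the lowest 2 for 9 of the 10. The regulators summed to 586, 110 and 554 CPM in the WT control mice and to 226, 849 and 458 CPM in the control mice labelled *Lcn2*-/-. In the IMQ mice the sums were 105, 63.8 and 93.5 CPM (WT) and 71.5, 80.2 and 61.4 CPM (labelled *Lcn2*-/-), so that WT control mouse 2 lay just above the highest IMQ mouse.

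**Figure D1:**
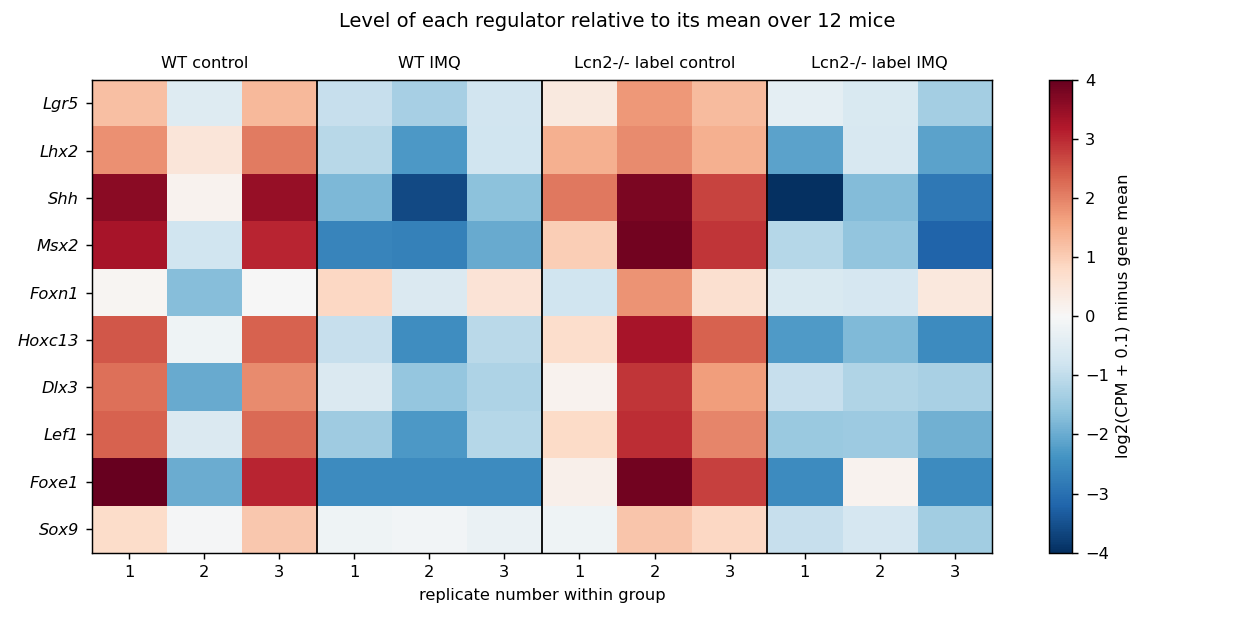
Level of each regulator (rows) in each of the 12 mice (columns, replicates 1 to 3 within the 4 groups), as log2(CPM + 0.1) minus the mean of that gene over all mice, in colour. Control columns are mostly red and IMQ columns mostly blue, except that WT control mouse 2 is pale or blue in most rows and that *Foxn1* does not follow the other rows in the IMQ columns.

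The spread between mice of a group was wide for these genes. The SD of log2 CPM had a median over the 10 genes of 1.58 in the WT control mice and 1.20 in the control mice labelled *Lcn2*-/-, against 0.26 and 0.25 over all genes tested. In the IMQ groups the medians were 0.55 (WT) and 0.56 (labelled *Lcn2*-/-), against 0.25 and 0.20. *Dlx3* and *Msx2* differed 18.6-fold and 17.4-fold between the highest and lowest WT control mouse, and *Sox9* 2.17-fold.

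Among the regulators, levels per kilobase of exon put *Dlx3* first in every group, with 48.7 ± 39.2 CPM per kb (SD, n = 3) in the WT control mice and 65.8 ± 53.4 in the control mice labelled *Lcn2*-/-. *Lhx2* followed in both control groups with 19.5 ± 9.45 and 19.2 ± 3.64 CPM per kb, and *Foxe1* was last with 2.09 ± 2.34 and 1.48 ± 1.37. Neighbours in this order overlapped between mice throughout both control groups. In the WT IMQ mice *Sox9* (5.57 ± 0.318 CPM per kb) and *Foxn1* (4.95 ± 2.15) came directly after *Dlx3* (8.16 ± 2.9). The same 3 genes led in the IMQ mice labelled *Lcn2*-/-, where *Dlx3* was above the next gene in every mouse.

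Whether the regulators were lower with IMQ than in controls was tested in the mice labelled *Lcn2*-/-, which share no animal with the WT comparison. The test was still not independent of the choice of genes, which was made with earlier results of these data known. The mice of all groups were also fitted together, so the WT mice entered the estimate of spread behind these p-values. Of the 10 genes, 8 fell with IMQ and 2 did not pass, where 11.2% of all genes tested were called lower and 14.1% called higher (adjusted p under 0.05, edgeR's quasi-likelihood test over all genes tested). The median log2 fold change of the 10 was -3.44, against -0.05 over all genes tested. For 9 of the 10 every IMQ mouse was below every control mouse, which held for 22.8% of all genes tested. *Shh*, *Msx2*, *Hoxc13* and *Lef1* changed most among the 8, and *Foxn1* and *Foxe1* did not pass. In bulk skin, fewer cells of a type and less RNA per cell cannot be told apart. The hair cycle stage of each mouse is not given, and its part in these differences was not tested.

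*Shh* (ENSMUSG00000002633, chr5:28456815-28467256, - strand, GRCm38) encodes Sonic hedgehog, the ligand of the growing follicle. It had 12.3, 38.8 and 18.6 CPM in the control mice labelled *Lcn2*-/- and 0.0611, 0.76 and 0.3 CPM in the IMQ mice with that label, the latter from 1, 13 and 5 counts. All 3 IMQ mice were far below the lowest control mouse, and the first of them was under the level that 3 counts give. *Shh* fell by 5.92 on the log2 scale, which is used for every fall and rise below (SE 1.02, adjusted p = 0.00228). The log2 fold change was -6.95 without IMQ mouse 2 and -5.33 without control mouse 2, and the call held in both. In the WT mice it had 35, 3.05 and 32.4 CPM in controls and 0.727, 0.134 and 0.823 CPM with IMQ. The WT means of 23.5 ± 17.8 and 0.562 ± 0.373 CPM were 41.9-fold apart.

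*Lgr5* (ENSMUSG00000020140, chr10:115450311-115587780, - strand) encodes an R-spondin receptor of follicle stem cells that raises Wnt signalling. The control mice labelled *Lcn2*-/- had 23, 58.8 and 41.7 CPM and the IMQ mice 13.2, 11.3 and 6.66 CPM, without overlap. It fell by 1.98 (SE 0.47, adjusted p = 0.0108), and without IMQ mouse 3 the adjusted p was 0.0523. In the WT mice it had 40.5, 12.2 and 42.7 CPM in controls and 9.21, 6.86 and 10.2 CPM with IMQ, where control mouse 2 was close above the IMQ mice. The WT means were 3.63-fold apart.

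*Lef1* (ENSMUSG00000027985, chr3:131110471-131224356, + strand) encodes a nuclear factor that takes the Wnt signal to its target genes. It had 11.5, 52.3 and 26 CPM in the control mice labelled *Lcn2*-/- and 2.32, 2.4 and 1.68 CPM in the IMQ mice. The IMQ mice lay close together, and the controls spread 4.53-fold. It fell by 3.80 (SE 0.75, adjusted p = 0.00439), and the log2 fold change was -3.13 without control mouse 2 (adjusted p = 0.0133). The WT controls had 34.4, 4.43 and 32.5 CPM and the WT IMQ mice 2.42, 1.28 and 3 CPM, a difference of 10.6-fold between means.

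Of the stem cell factors, *Lhx2* (ENSMUSG00000000247, chr2:38339281-38369733, + strand) encodes a LIM homeobox factor that maintains follicle stem cells. It had 75.2, 103 and 74.8 CPM in the control mice labelled *Lcn2*-/-, the smallest spread of the 10 genes in that group at 1.37-fold, and 6.29, 17.7 and 6.3 CPM in the IMQ mice. It fell by 3.06 (SE 0.52, adjusted p = 0.00215), and the log2 fold change was -3.74 without IMQ mouse 2 (adjusted p = 0.00206). The WT controls had 98.9, 39.3 and 119 CPM and the WT IMQ mice 13, 5.65 and 15.9 CPM. Here control mouse 2 was 2.77-fold below the mean of the other controls yet well above the highest IMQ mouse, and the WT means were 7.44-fold apart.

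*Sox9* (ENSMUSG00000000567, chr11:112782224-112787760, + strand) encodes an SRY-box factor of the bulge and outer root sheath. The control mice labelled *Lcn2*-/- had 23.5, 57.2 and 46.4 CPM and the IMQ mice 13.9, 16.3 and 9.95 CPM. The groups did not overlap, although control mouse 1 stood closer to the IMQ mice than to the other controls. *Sox9* fell by 1.66 (SE 0.34, adjusted p = 0.00531), the smallest size among the 8 genes that fell. The WT controls had 43.7, 25.4 and 55 CPM and the WT IMQ mice 23.2, 24.3 and 21.7 CPM, a difference of 1.8-fold between means with control mouse 2 just above the IMQ mice.

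Among the matrix and shaft factors, *Msx2* (ENSMUSG00000021469, chr13:53466884-53473074, - strand) encodes a homeobox factor of the matrix. It had 11.5, 85.9 and 42.7 CPM in the control mice labelled *Lcn2*-/- and 2.56, 1.87 and 0.54 CPM in the IMQ mice. Even the lowest control mouse was above every IMQ mouse. *Msx2* fell by 4.81 (SE 1.06, adjusted p = 0.00845), with a log2 fold change of -4.02 without control mouse 2 (adjusted p = 0.0188). The WT controls had 57.7, 3.31 and 48.3 CPM and the WT IMQ mice 0.848, 0.807 and 1.36 CPM. WT control mouse 2 was 16-fold below the mean of the other controls, and the WT means were 36.3-fold apart.

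*Hoxc13* (ENSMUSG00000001655, chr15:102921103-102928814, + strand) encodes a homeobox activator of hair keratin genes. The control mice labelled *Lcn2*-/- had 13, 78.9 and 41.5 CPM and the IMQ mice 1.59, 2.28 and 1.32 CPM. The groups were far apart, with the spread in the controls 6.08-fold. It fell by 4.67 (SE 0.82, adjusted p = 0.00251), with a log2 fold change of -3.97 without control mouse 2 (adjusted p = 0.00675). The WT controls had 45.5, 7.14 and 41.4 CPM and the WT IMQ mice 4.18, 1.34 and 3.73 CPM, and the means were 10.2-fold apart.

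*Dlx3* (ENSMUSG00000001510, chr11:95120119-95125296, + strand) encodes a distal-less homeobox factor of the hair matrix that also acts in the differentiating epidermis. It had 48.7, 323 and 143 CPM in the control mice labelled *Lcn2*-/- and 23.5, 19.3 and 18.2 CPM in the IMQ mice. The IMQ mice were alike while the controls differed 6.63-fold. *Dlx3* fell by 3.08 (SE 0.93, adjusted p = 0.036), a call lost on leaving out control mouse 2 (adjusted p = 0.0873), control mouse 3 (0.0663), IMQ mouse 1 (0.0912), IMQ mouse 2 (0.109) or IMQ mouse 3 (0.116). Without control mouse 2 the log2 fold change was -2.24. The WT controls had 204, 11 and 166 CPM and the WT IMQ mice 29.7, 15.3 and 18.8 CPM. WT control mouse 2 was below every WT IMQ mouse, so the WT groups overlapped, and their means were 5.97-fold apart.

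*Foxn1* (ENSMUSG00000002057, chr11:78357577-78386558, - strand) encodes the winged-helix factor lost in nude mice, which acts in hair keratin expression and in keratinocytes that begin to differentiate. It had 6.96, 43.1 and 19.1 CPM in the control mice labelled *Lcn2*-/- and 8.06, 7.66 and 16.5 CPM in the IMQ mice. The groups overlapped, and the log2 fold change of -1.10 (SE 0.64, 95% interval -2.50 to 0.31) had an adjusted p of 0.231. Without control mouse 2 it was -0.27 (adjusted p = 0.792). In the WT mice the controls had 13, 3.7 and 12.2 CPM and the IMQ mice 21.6, 8.2 and 18 CPM. The WT groups overlapped as well, with the IMQ mean 1.65-fold higher.

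*Foxe1* (ENSMUSG00000070990, chr4:46343609-46346412, + strand) encodes a forkhead factor known from the thyroid and the hair follicle. It had 17, 154 and 83 counts in the control mice labelled *Lcn2*-/- (0.558, 8.21 and 3.71 CPM), and 0, 9 and 0 counts in the IMQ mice (0.526 CPM in mouse 2), where 0 counts allow up to 0.171 and 0.17 CPM. Control mouse 1 and IMQ mouse 2 were nearly level. The groups did not overlap, and the log2 fold change of -4.48 (SE 1.76) gave an adjusted p of 0.0912. Without control mouse 2 it was -3.52 (adjusted p = 0.218), and without IMQ mouse 2, which held all 9 counts of its group, the IMQ mice were at 0 and no fold is given. Pooled over mice, 254 counts against 9 gave a ratio of 19.8 in CPM (95% interval 10.3 to 43.7 for counting error only). In the WT mice, 281, 1 and 86 counts stood against 0, 0 and 0, and the control mean of 5.87 ± 6.57 CPM was at least 33.3-fold higher than the 0.176 CPM that 3 counts per IMQ library give. That bound rested on WT control mouse 1 and was 13.1-fold without it. WT control mouse 2, at 0.043 CPM, was itself under that floor.

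**Figure D2:**
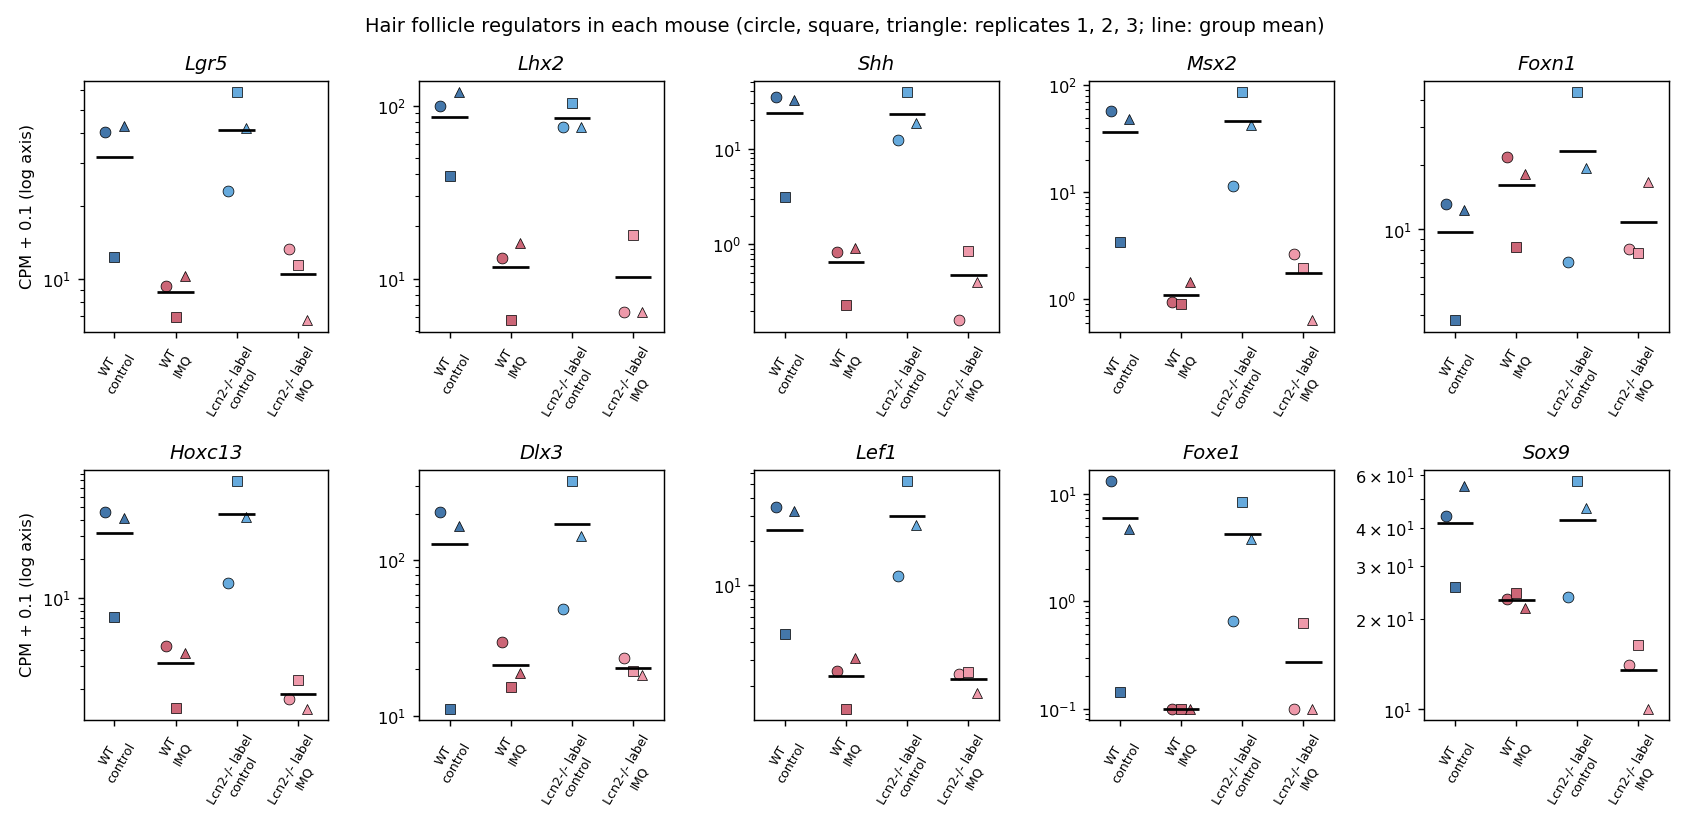
CPM + 0.1 (log axis) of each of the 10 regulators in each mouse of the 4 groups, with circles, squares and triangles for replicates 1, 2 and 3 and a line at the group mean. For *Shh*, *Msx2*, *Hoxc13* and *Lef1* both IMQ groups lie below all control mice, the square of the WT control group is the lowest control point in all panels but *Sox9*, and the groups of *Foxn1* overlap.

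Among WT mice, described without a test, 9 of the 10 genes had a negative log2 fold change with IMQ, the exception being *Foxn1*. The median of the 10 was -3.11, also with *Foxe1* set to its bound of -5.06, against -0.02 over all genes tested. For 8 of the 10 every IMQ mouse was below every control mouse, where 20.6% of all genes tested showed this, 14.3% were called lower and 14.2% called higher. Without WT control mouse 2 the median of the 10 was -3.52. That mouse was below the other WT controls in all 10 genes, above every WT IMQ mouse in 8, and below every WT IMQ mouse in *Foxn1* and *Dlx3*.

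Whether the genotype label changed the levels under IMQ was asked by setting the IMQ mice of the 2 genotypes side by side. This comparison shares its mice with both IMQ comparisons above. None of the 10 genes was called in edgeR or DESeq2, 1 had an unadjusted p under 0.05 in edgeR, and 2.6% and 2.19% of all genes tested were called lower and higher. That gene was *Sox9*, with 13.9, 16.3 and 9.95 CPM in the IMQ mice labelled *Lcn2*-/- below 23.2, 24.3 and 21.7 CPM in the WT IMQ mice, without overlap. Its log2 fold change was -0.78 (SE 0.34, 95% interval -1.52 to -0.05, adjusted p = 0.164), and with the 6 compared mice alone in the fit the adjusted p was 0.0407. The other 9 overlapped between genotypes. Their intervals were wide, as for *Shh* (-3.27 to 2.04), *Msx2* (-1.86 to 3.25) and *Dlx3* (-2.03 to 1.90), and narrowest for *Lgr5* (-0.78 to 1.26) and *Lhx2* (-1.31 to 0.91). No fold is given for *Foxe1*, since the WT IMQ mice were at 0.

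Between the control mice of the genotypes, none of the 10 genes was called in edgeR or DESeq2 and none had an unadjusted p under 0.05, with 0.0054% of all genes tested called lower and 0.0054% called higher. All 10 overlapped. *Foxn1* had the largest log2 difference, 1.25 higher in the mice labelled *Lcn2*-/- (SE 0.64, 95% interval -0.15 to 2.66, adjusted p = 0.831), and 0.43 without control mouse 2 of that label. For *Lhx2*, *Shh* and *Sox9* the estimates were -0.03 (95% interval -1.06 to 1.01), -0.02 (-1.62 to 1.58) and 0.03 (-0.68 to 0.75).

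Whether the IMQ response depended on the genotype label was tested by an interaction term for the 9 genes other than *Foxe1*, and it contains the WT comparison that led to the list. None was called in edgeR or DESeq2 and none had an unadjusted p under 0.05, while 0.783% and 1.37% of all genes tested were called lower and higher. *Foxn1* had the largest estimate, -1.82 (SE 0.90, 95% interval -3.80 to 0.16, adjusted p = 0.24), from a log2 fold change of 0.73 in WT mice and -1.10 in the mice labelled *Lcn2*-/-. Without control mouse 2 of that label the estimate was -0.99. For *Lgr5* and *Lhx2* the differences were -0.13 (95% interval -1.54 to 1.28) and -0.17 (-1.69 to 1.35).

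**Figure D3:**
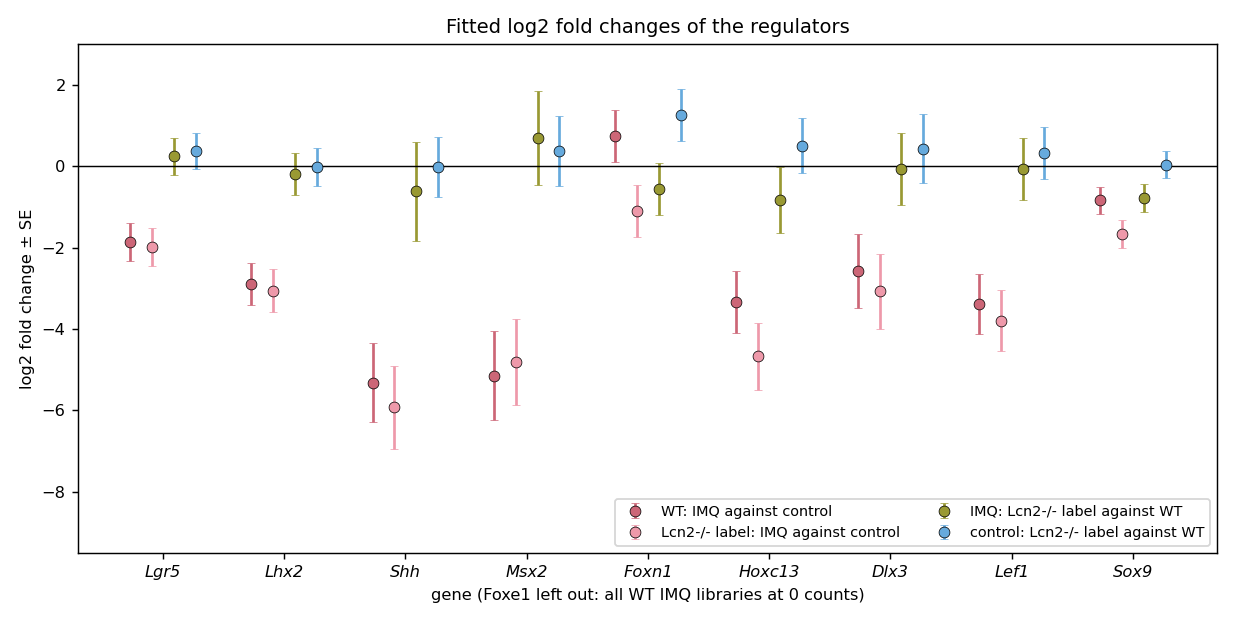
Fitted log2 fold change with its SE (vertical axis) of 9 regulators (horizontal axis) for IMQ against control within each genotype label and for the genotype label within each treatment, 3 mice a group, with *Foxe1* left out because the WT IMQ mice were at 0. The red and pink points of IMQ against control lie below 0 for every gene except *Foxn1* in WT mice, and the olive and blue points of the genotype label lie between -0.84 and 1.25.

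Other genes of the follicle were read from 6 lists with 91 genes in all, of which 88 were tested. With IMQ, 48 fell and 5 rose in the mice labelled *Lcn2*-/- (median log2 fold change -0.77), and 46 fell and 8 rose in WT mice (median -0.86). Of all genes tested, 11.2% were called lower and 14.1% higher in the labelled mice, and 14.3% and 14.2% in WT mice, and the counts of each list below are to be read against these shares. Without IMQ mouse 3 of the labelled group 28 were called lower. These medians compare with -0.05 and -0.02 over all genes tested. The lists, like the 10 genes, were chosen with results of these mice known.

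Of the 13 Hedgehog genes, 10 fell and 1 rose in the mice labelled *Lcn2*-/-, and 11 fell and 1 rose in WT mice. *Ptch1*, the SHH receptor and a target of the pathway, had 178, 264 and 178 CPM in the control mice labelled *Lcn2*-/- and 32.4, 54.1 and 32.6 CPM in the IMQ mice. It fell by 2.38 (SE 0.39, adjusted p = 0.00172) there and fell by 2.49 (SE 0.39, adjusted p = 0.000924) in WT mice. *Gli1*, the target that also relays the signal in the nucleus, fell by 2.73 (SE 0.56, adjusted p = 0.00524) in the labelled mice and fell by 2.06 (SE 0.54, adjusted p = 0.0154) in WT mice. *Gas1*, a surface protein that binds SHH, rose in the mice labelled *Lcn2*-/-, from 72 ± 9.62 to 174 ± 14.1 CPM (SD, n = 3), which is 1.27 on the log2 scale (SE 0.14, adjusted p = 0.000113).

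Of the 22 tested Wnt genes, 13 fell and 9 did not pass in the mice labelled *Lcn2*-/-, and 12 fell and 1 rose in WT mice. *Wnt10b*, a ligand of early anagen, had 12.8, 33.1 and 18.3 CPM in the control mice labelled *Lcn2*-/- and 1.59, 2.16 and 2.28 CPM in the IMQ mice, and fell by 3.41 (SE 0.58, adjusted p = 0.00215). *Axin2*, a common target of the pathway, fell by 0.83 (SE 0.21, adjusted p = 0.0148). *Wnt4* was the WT gene that rose, from 36.7 ± 16.5 to 81.3 ± 10.5 CPM (log2 fold change 1.15, SE 0.37, adjusted p = 0.036).

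Of the 17 genes of BMP, FGF, TGF-beta and ectodysplasin signals, 6 fell and 11 did not pass in the mice labelled *Lcn2*-/-, and 7 fell and 10 did not pass in WT mice. *Bmp4*, which encodes a bone morphogenetic protein, fell by 1.77 (SE 0.25, adjusted p = 0.000622) and *Edar*, the ectodysplasin receptor, fell by 2.96 (SE 0.56, adjusted p = 0.00358) in the labelled mice. *Fgf7*, a growth factor of the dermis, stood at 0.03 (SE 0.30, adjusted p = 0.958).

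Of the 19 tested transcription factors, 10 fell and 3 rose in the mice labelled *Lcn2*-/-, and 8 fell and 4 rose in WT mice. *Dlx2*, a relative of *Dlx3*, had the largest fall, with 11 ± 7.41 CPM in the control mice labelled *Lcn2*-/- and 1, 2 and 0 counts in the IMQ mice. The ratio of pooled CPM was 165 (95% interval 56.2 to 801 for counting error only, adjusted p = 0.00202 from the fit), and in WT mice *Dlx2* fell by 5.58 (SE 1.03, adjusted p = 0.00236). *Dlx1* fell by 4.55 (SE 0.96, adjusted p = 0.00607) in the labelled mice, where the IMQ mice had only 1, 2 and 6 counts. Its ratio of pooled CPM was 21.7 (95% interval 11.3 to 48 for counting error only). *Msx1*, a relative of *Msx2*, fell by 4.70 (SE 0.88, adjusted p = 0.00257) in WT mice. *Ovol1* and *Prdm1*, which act in differentiating epidermis, rose by 1.64 (SE 0.34, adjusted p = 0.00423) and 1.16 (SE 0.18, adjusted p = 0.000782) in WT mice. *Nfatc1*, listed as a factor of bulge cells, rose by 0.73 (SE 0.17, adjusted p = 0.0101) in the labelled mice. In WT mice it stood at 0.08 (SE 0.17, adjusted p = 0.754), and bulk RNA does not show which cells carried the rise.

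Of the 8 genes of the outer root sheath, bulge and upper follicle, 5 fell and 3 did not pass in the mice labelled *Lcn2*-/-, and 3 fell and 1 rose in WT mice. *Krt15*, a keratin of bulge cells, fell by 2.13 (SE 0.44, adjusted p = 0.00562) in the labelled mice and fell by 2.23 (SE 0.44, adjusted p = 0.00355) in WT mice. The 3 that did not pass in the labelled mice were *Cd34* (log2 fold change 0.10, SE 0.36, adjusted p = 0.861), *Plet1* (-0.21, SE 0.21, adjusted p = 0.498) and *Cdh3* (-0.42, SE 0.47, adjusted p = 0.549). *Plet1* was the WT gene that rose, by 1.14 (SE 0.21, adjusted p = 0.00225). Of the 12 dermal papilla genes, 7 fell and 1 rose in the labelled mice, and 8 fell and 1 rose in WT mice. *Corin*, a papilla protease, fell by 4.88 (SE 0.95, adjusted p = 0.00408) in the labelled mice and fell by 4.67 (SE 0.93, adjusted p = 0.00362) in WT mice. *Crabp1*, a retinoic acid-binding protein, rose from 16.9 ± 1.15 to 60 ± 7.86 CPM in the labelled mice, by 1.83 (SE 0.15, adjusted p = 1.96e-05).

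Between the IMQ mice of the genotypes, 3 of the 88 genes were called lower and 6 higher in the mice labelled *Lcn2*-/-, where 2.6% and 2.19% of all genes tested were called lower and higher, so that the lower count was near the share over all genes. Both counts were 0 on leaving out WT IMQ mouse 1, WT IMQ mouse 3 or any of the labelled IMQ mice. *Plet1*, *Fst* and *Hr* were lower, by -1.08 (SE 0.21, adjusted p = 0.0276), -1.06 (SE 0.19, adjusted p = 0.0222) and -0.85 (SE 0.20, adjusted p = 0.04). The largest rises were *Sox18* with 1.72 (SE 0.37, adjusted p = 0.0349), *Tcf7l1* with 1.09 (SE 0.16, adjusted p = 0.0219) and *Bmp6* with 1.08 (SE 0.26, adjusted p = 0.0429). Markers of other cells differed in the same comparison, with 3 of 6 fibroblast genes called higher (sums of 19630 to 20462 CPM in the labelled IMQ mice and 10041 to 10596 CPM in the WT IMQ mice) and 2 of 5 basal keratinocyte genes called lower (8961 to 12848 and 15136 to 22220 CPM). No marker of either list was at 0, and their part in these differences was not tested. Between the control mice none of the 88 was called in edgeR or DESeq2, and 2 had an unadjusted p under 0.05.

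Products of the growing shaft and the regulators had the same lowest and the same highest control mouse in summed CPM. Of 24 genes of the hair shaft and inner root sheath, 23 were in the table, and 22 of them fell in the mice labelled *Lcn2*-/-. Some of them, as *Krt33b*, *Krt81*, *Krt72* and *Dsg4*, had 0 CPM in the labelled IMQ mice. These passed the filter on low counts through other mice, so that only a fall could be called for them. In the WT mice 5 fell and 1 rose. None of the 23 was called between the control mice of the genotypes. For the difference of the IMQ responses none was called either, where 0.783% and 1.37% of all genes tested were called lower and higher. The counts of 22 and 5 are therefore not read as a difference between the genotype labels. Of all genes tested 11.2% were called lower in the labelled mice and 14.3% in WT mice. Every IMQ mouse was below every control mouse for 14 of the 23 in the labelled mice and for 4 of the 23 in the WT mice, against 22.8% and 20.6% of all genes tested. They summed to 3547, 27.3 and 2050 CPM in the WT control mice and to 251, 12687 and 4878 CPM in the control mice labelled *Lcn2*-/-. In the IMQ mice the sums were 28, 26.6 and 113 CPM (WT) and 25.1, 30.8 and 22.4 CPM (labelled *Lcn2*-/-), with up to 12 of the 23 genes at 0. WT control mouse 2, with 7 of the 23 genes at 0, lay among the IMQ mice, and control mouse 2 labelled *Lcn2*-/- was the highest of all 12.

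**Figure D4:**
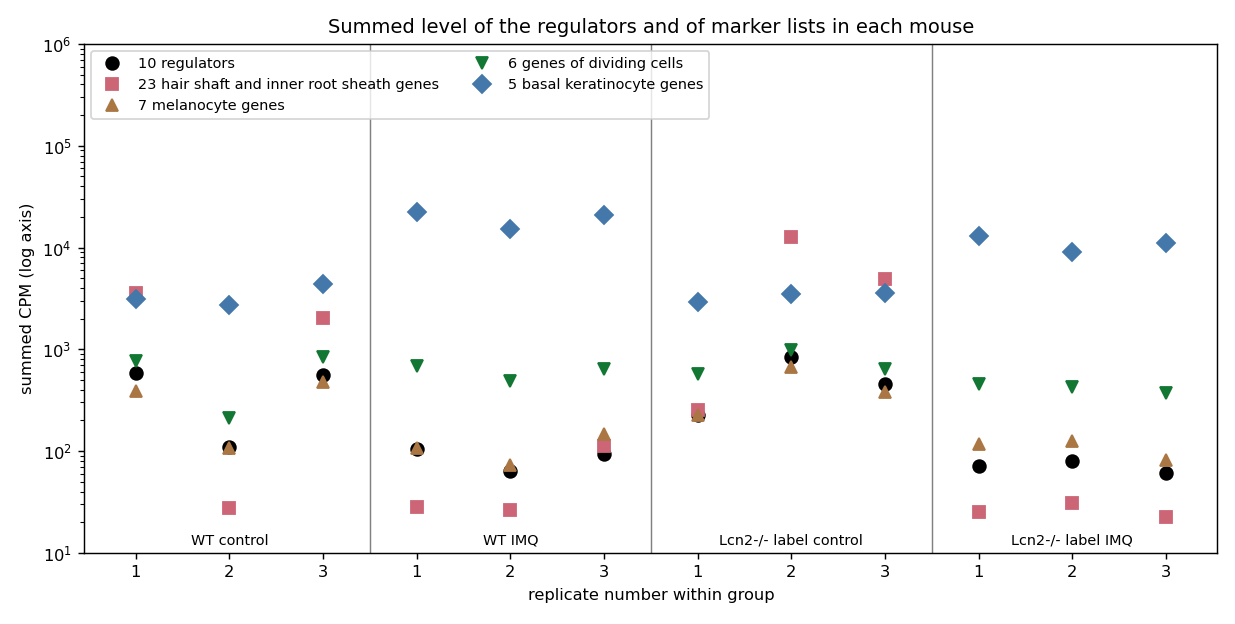
Summed CPM (log axis) of the 10 regulators and of 4 gene lists in each mouse, by group and replicate number. The black circles of the regulators, the squares of the hair shaft genes and the triangles of the melanocyte genes are low in all IMQ mice and in WT control mouse 2, and the diamonds of the basal keratinocyte genes lie above all 6 control mice in all 6 IMQ mice.

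Markers of other cells moved with the treatment or between control mice, and their part in the results was not tested. The 7 melanocyte genes summed to between 106 and 477 CPM in the WT control mice and between 72.5 and 148 CPM in the WT IMQ mice, with 225 to 669 CPM and 81.4 to 125 CPM in the labelled groups. No melanocyte gene was at 0 in any mouse, and 3 (WT) and 5 (labelled) of the 7 fell. The 6 genes of dividing cells summed to 210 CPM in WT control mouse 2 and to between 573 and 984 CPM in the other controls. In the IMQ mice they lay between 493 and 692 CPM (WT) and between 373 and 460 CPM (labelled). None of the 6 was called between IMQ and control mice in edgeR or DESeq2, and 1 had an unadjusted p under 0.05, in the labelled mice. There all 6 had a negative log2 fold change (median -0.67), and 3 of 6 in WT mice (median 0.03). Every IMQ mouse was below every control mouse for 5 of the 6 in the labelled mice and 0 in WT mice, against 22.8% and 20.6% of all genes tested. The 5 basal keratinocyte genes rose in WT mice, all 5, and 3 of them in the labelled mice, with sums of 2712 to 4369 and 2910 to 3592 CPM in controls and 15136 to 22220 and 8961 to 12848 CPM with IMQ. Of the 5 suprabasal keratinocyte genes, 3 rose in WT and 4 in labelled mice, and all 5 neutrophil genes rose in both.

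Sebaceous gland genes, whose gland is attached to the follicle, did not follow WT control mouse 2. The 6 genes summed to 4107, 7383 and 7050 CPM in the WT control mice and to between 1205 and 3444 CPM in the WT IMQ mice. In the labelled mice the sums were 6566 to 9717 CPM in controls and 1371 to 4065 CPM with IMQ, and 5 (WT) and 3 (labelled) of the 6 genes fell. The 5 adipocyte genes summed to between 1735 and 4377 CPM in controls and between 1016 and 3307 CPM with IMQ, and 1 of them fell in each genotype. For 6 skeletal muscle genes the sums were 4709 to 10493 CPM and 3887 to 7221 CPM, with 4 (WT) and 2 (labelled) lower and 1 higher in each. The 6 fibroblast genes summed to between 9853 and 16348 CPM in all WT mice and the labelled controls, and to between 19630 and 20462 CPM in the labelled IMQ mice, where 4 of the 6 rose, while 2 of the 6 fell in WT mice.

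The genes whose pattern over the 12 mice was most like the mean standardized level of the 10 regulators were *Hes2*, *Krt35*, *Cbx2*, *Dct*, *Trpm1*, *Acan*, *Nhs* and *Lgr4*, with Pearson's r from 0.993 for *Hes2* to 0.982 for *Lgr4*. These correlations are a description across 12 mice in 4 groups that share their treatments. *Hes2*, a basic helix-loop-helix gene, had means of 5.32 and 5.71 CPM in the control groups (WT and labelled) and 0.0888 and 0.0983 CPM in the IMQ groups. *Krt35*, a hair keratin, had 78.9 and 163 CPM against 0.39 and 0.392 CPM, and *Dct*, of melanin synthesis, 151 and 186 CPM against 47.2 and 46.9 CPM. Those most like *Foxe1* were *Hes2* (r = 0.972), *Ggt1* (0.965), *Fzd1* (0.963), *Gm12446* (0.963) and *Ncald* (0.961).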

How the data were processed

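RNA of back skin from 12 mice was sequenced by the authors as paired reads on an Illumina instrument, and they deposited 1 table of raw counts, whole numbers of reads per Ensembl gene and library without normalization. The submitters' processing notes name HISAT and the build mm8, and the counter and annotation are not given in the sources used here. Names, positions and exon lengths came from GENCODE M21 (GRCm38), which holds 52073 of 56923 identifiers (91.5%), and unmatched identifiers held 0.567% of the counts. All values were counted per gene without a stated strand setting.

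After TMM scaling, a robust quasi-likelihood model with 1 mean per group was fitted to all 12 mice in edgeR 4.0.16 (limma 3.58.1, R 4.3.3), and p-values were adjusted by Benjamini-Hochberg over 18529 genes kept by filterByExpr with a minimum count of 10 and a minimum total of 15. Common variation was 0.253 as a biological coefficient of variation. A gene was called at an adjusted p under 0.05. Each SE was derived from the quasi-likelihood test, as the size of the log2 fold change divided by the square root of its F statistic. Intervals of log2 fold changes use this SE and the t distribution with the fit's degrees of freedom. CPM values are per effective library size. Totals of 16448226 to 28592110 counts put the floor of 3 counts at 0.105 to 0.182 CPM, and floors and ratio intervals hold for counting error only, because reads that carry no molecular identifiers may be copies. No libraries of a group agreed within sampling noise. Replicates were taken as separate mice, which the labels only number, and p-values set group differences against the estimated spread between these libraries.

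The 10 genes, the 6 pathway lists and the marker lists were chosen with earlier results of these data known. All 10 were described in every comparison. Of the pathway lists, the 3 largest rises and falls among called genes with a mean of at least 1 CPM were named. *Ptch1*, *Gli1*, *Wnt10b*, *Axin2*, *Bmp4*, *Edar*, *Fgf7*, *Krt15*, *Cd34* and *Cdh3* were named as examples after their values were seen. Genes alike were the 8 with the highest Pearson's r to the mean standardized log2 CPM of the 10 and the 5 most like *Foxe1*, both among genes with a mean of at least 1 CPM.

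Alternatives were RLE size factors, DESeq2 1.42.0, no filter, at least 10 counts in every library, the compared mice only, the replicate number as a block, each mouse left out in turn, and a fold above 2 with an unadjusted p under 0.05. The fit was tested on simulated counts. Promoter windows came from RefSeq. *Krt85* was not analysed here. Plots were made in Python 3.11.15 (matplotlib 3.10.9).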

Additional observations from a re-analysis of the deposited data

Results flagged for a closer look

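The IMQ responses of 4 of the 88 tested pathway genes differed between the genotype labels in edgeR's interaction test, 3 with a higher and 1 with a lower response in the mice labelled *Lcn2*-/-. Of all genes tested, 1.37% were called higher and 0.783% lower in that test, so that the 1 lower gene, *Plet1*, is near the share over all genes. In the same test 3 of 6 fibroblast genes were called higher, with summed levels of 19630 to 20462 CPM in the labelled IMQ mice and 10041 to 10596 CPM in the WT IMQ mice, and their part in these results was not tested. *Sox18*, a factor of dermal papilla and vessel cells, had a difference of 2.38 on the log2 scale (SE 0.52, adjusted p = 0.0436), from -1.80 in WT mice and 0.59 in the labelled mice. *Tcf7l1*, a Wnt factor of bulge cells, had 1.19 (SE 0.23, adjusted p = 0.031), from -1.25 and -0.06. *Crabp1* had 1.01 (SE 0.20, adjusted p = 0.0364), from 0.82 and 1.83, and *Plet1* of the upper follicle had -1.34 (SE 0.30, adjusted p = 0.0436), from 1.14 and -0.21. *Plet1* had 30.8, 43.2 and 52.2 CPM in the WT control mice and 87.1, 111 and 79.5 CPM in the WT IMQ mice, whereas the labelled mice had 49.3, 47 and 54.4 CPM in controls and 38.6, 36.4 and 55.7 CPM with IMQ. *Sox18* had 48, 15.6 and 38.2 CPM in the WT controls, 6.12, 12.9 and 10.2 CPM with IMQ, 24.6, 21.4 and 18.2 CPM in the labelled controls and 26, 32.8 and 37.7 CPM with IMQ.

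With the replicate number as a block no call of the 4 was kept, with adjusted p of 0.0936 (*Sox18*), 0.0587 (*Tcf7l1*), 0.0689 (*Crabp1*) and 0.0627 (*Plet1*). All 4 calls were lost on leaving out WT control mouse 1 (adjusted p = 0.102, 0.0867, 0.0628 and 0.0981 in the same order), WT IMQ mouse 1 (0.136, 0.101, 0.122 and 0.129), WT IMQ mouse 3 (0.112, 0.0882, 0.0744 and 0.0882), labelled control mouse 2 (0.0881, 0.0583, 0.0758 and 0.0846), labelled control mouse 3 (0.122, 0.0935, 0.0857 and 0.121), labelled IMQ mouse 1 (0.0725, 0.057, 0.0744 and 0.0919) or labelled IMQ mouse 2 (0.13, 0.101, 0.0769 and 0.131). Without WT control mouse 2 the values were 0.0182, 0.0571, 0.0696 and 0.0821, and without labelled IMQ mouse 3 they were 0.0869, 0.0518, 0.068 and 0.0488. Without the filter on low counts, *Sox18* had an adjusted p of 0.0837. DESeq2 called all 4.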

How the results depend on the processing

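Under the alternatives, the count of regulators that fell with IMQ in the mice labelled *Lcn2*-/- lay between 6 and 9, with 6 to 8 on leaving out a mouse, and all 117 alternative estimates were negative. *Dlx3* was called in 5 of its 12 alternatives (adjusted p from 0.00472 to 0.116, with 0.106 without the filter), *Lgr5* in 11 of 12, and *Foxe1* in 1 of 11 (0.0338 to 0.291), the fit of the compared mice only. The strict filter left out *Shh*, *Msx2* and *Foxe1*, and the WT fits of compared mice only left out *Foxe1*. The WT median lay between -3.52 and -2.78 on leaving out a mouse. With the compared mice only, 1 regulator and 5 pathway genes were called lower between the IMQ groups, in place of 0 and 3. With the fold rule, pathway genes called higher with IMQ numbered 5 in WT and 2 in labelled mice, in place of 8 and 5. Leaving out a mouse moved pathway genes called lower to between 28 and 48 in the labelled mice, and between the IMQ groups to 0 to 3 lower and 0 to 8 higher, and the cause was not tested.

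Same-numbered mice were taken as different animals. Their deviations from group means had a mean correlation of -0.0507 (-0.555 to 0.199 over 18 pairs), against 0.0272 for other numbers, so the numbers were not taken as pairs. With the replicate block, 3 pathway genes were called higher between the IMQ groups in place of 6, *Dlx3* lost its call (adjusted p = 0.0718) and *Shh* and *Sox9* turned to 0.05 and -0.01 between the controls.

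The 41 other estimates that turned sign came from leaving out a mouse, none of them called. Between the IMQ groups they were *Lhx2* (-0.88 to 0.11), *Dlx3* (-0.25 to 0.25) and *Lef1* (-0.35 to 0.20). Between the controls they were *Lhx2* (-0.35 to 0.29), *Shh* (-0.61 to 0.39), *Msx2* (-0.43 to 0.86), *Hoxc13* (-0.21 to 0.94), *Dlx3* (-0.41 to 0.96), *Lef1* (-0.34 to 0.72), *Foxe1* (-1.47 to 0.85) and *Sox9* (-0.24 to 0.33). For the difference of responses they were *Lgr5* (-0.41 to 0.26), *Lhx2* (-0.85 to 0.18), *Msx2* (-0.16 to 1.13), *Dlx3* (-1.02 to 0.34) and *Lef1* (-0.80 to 0.26). With 3 mice a group and the spread of the controls, intervals between genotypes span more than 1 log2 unit for each of the 10 genes.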
